A study of Mus musculus with 6 samples.

Results

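The 40 genes described here are interferon-stimulated genes, a panel of transcription factors, antiviral proteins and immunity-related GTPases that were listed by name and looked up in the liver count table by their Ensembl gene IDs. All 40 were among the 49671 genes of the table, and all 40 were among the 13773 genes that passed the filter on low counts. RNA-seq was performed on bulk liver tissue of mice at an age of 6 months, kept in standard housing. There were 3 wild-type (WT) and 3 p75NTR KO libraries, each given its own replicate number (WT replicates 1, 2 and 3, KO replicates 1, 2 and 4). The KO mice were homozygous for a deletion in Ngfr, the gene of the p75 neurotrophin receptor, as made by Lee and co-workers. Both groups carried the strain label B6.1129S4-Ngfr/J, came from breeding of 1 Jackson Laboratory line and received a standard diet. The deletion was present in every cell of the body and not in hepatocytes alone. The study asked which liver genes differ in the absence of p75NTR.

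Interferons are secreted when cells sense foreign nucleic acid, and they act through the receptors Ifnar1 and Ifnar2 (type I) or Ifngr1 and Ifngr2 (type II) on the JAK kinases. Type I signals bring Stat2 and Irf9 into a complex that binds the interferon-stimulated response element (ISRE), and type II signals act through the gamma-activated site (GAS). The genes switched on in this way block viral entry, translation and replication, and a low tonic level of them is found in healthy liver in hepatocytes, Kupffer cells and endothelial cells alike.

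Total counts per library were 27107209 to 32664149. Ngfr had 4.32, 4.62 and 2.82 CPM (the gene's share of the TMM-scaled library, as counts per 1000000) across WT replicates 1 to 3, and 1.68, 0.834 and 1.61 CPM across KO replicates 1, 2 and 4. All KO libraries were below all WT libraries, but gene-level counts include exons outside the deleted part, so they check the labels in part only. Hepatocyte markers (Alb, Apoa1, Ttr, Cps1, Cyp2e1 and Tat) summed to 105331 to 130206 CPM and were detected in every library. KO replicate 4 stood apart: it held 161 CPM of 4 Y-linked genes against 0 to 0.0724 CPM in the other 5 libraries, its level of Xist was 0.548 CPM against 214 to 342, and it lay at 64.63 on the first principal component (39.28% of the variance), the others at -18.39 to -9.267. For each of the 40 genes the log2 fold change is therefore given with and without this library. The labels give no sex, and any part of sex in the values of this library was not tested.

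To show the regulatory sequence that these genes share, promoter windows from 250 bases before to 50 bases after the start site were read from RefSeq (GRCm38.p6), and 29 of the 40 genes matched a window. The ISRE core GAAANNGAAA, searched on both strands, was found in 16 of the 29 (55.2%), against 1079 of 27025 genes with a window (3.99%). The core followed by CT (GAAANNGAAACT) was found in 9 (31%), against 82 of 27025 (0.303%). The GAS motif TTCNNNGAA, a palindrome, was found in 7 (24.1%), against 2582 of 27025 (9.55%), and it overlapped an ISRE core in Bst2 alone. A match describes these letters and is not evidence of binding. Stretches of 9 promoters are printed 5′ to 3′ on the strand of the gene, with the ISRE core in capitals. It appears as its reverse complement where the core lies on the opposite strand, and overlapping cores are joined. They were chosen to show genes that lay far below the other libraries in KO replicate 4 (Isg15, Ifit1, Ifit3, Ifit3b and Igtp), near-identical pairs, and Bst2, the gene with the highest level per length. Only stretches with a core were printed, so this choice cannot show whether a core goes with a low value in that library. Ifi44, the gene furthest below the other libraries there, had a window without a core. The stretches lie at chr4:156200830-156200941 (minus strand) for Isg15, chr19:34640740-34640858 (plus strand) for Ifit1, chr19:34583328-34583461 (plus strand) for Ifit3, chr19:34607724-34607857 (plus strand) for Ifit3b, chr5:120907526-120907590 (minus strand) for Oas1a, chr5:120887614-120887676 (minus strand) for Oas1g, chr11:58214868-58214967 (plus strand) for Irgm2, chr11:58199477-58199555 (plus strand) for Igtp and chr8:71537542-71537647 (minus strand) for Bst2.
Isg15: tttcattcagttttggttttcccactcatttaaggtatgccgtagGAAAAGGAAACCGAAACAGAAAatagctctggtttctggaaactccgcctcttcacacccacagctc
Ifit1: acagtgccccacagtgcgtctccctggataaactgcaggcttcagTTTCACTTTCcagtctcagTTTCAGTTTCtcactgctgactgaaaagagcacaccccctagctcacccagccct
Ifit3: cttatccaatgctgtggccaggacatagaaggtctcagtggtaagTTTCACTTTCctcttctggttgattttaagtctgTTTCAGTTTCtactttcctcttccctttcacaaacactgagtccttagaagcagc
Ifit3b: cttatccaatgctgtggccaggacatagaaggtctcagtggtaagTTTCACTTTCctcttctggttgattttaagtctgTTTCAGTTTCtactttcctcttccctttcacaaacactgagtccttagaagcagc
Oas1a: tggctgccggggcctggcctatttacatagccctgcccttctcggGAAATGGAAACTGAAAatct
Oas1g: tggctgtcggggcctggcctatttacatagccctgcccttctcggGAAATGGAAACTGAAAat
Irgm2: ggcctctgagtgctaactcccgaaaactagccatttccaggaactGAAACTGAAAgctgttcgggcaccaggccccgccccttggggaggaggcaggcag
Igtp: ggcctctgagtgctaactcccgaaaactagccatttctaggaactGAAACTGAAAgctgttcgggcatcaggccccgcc
Bst2: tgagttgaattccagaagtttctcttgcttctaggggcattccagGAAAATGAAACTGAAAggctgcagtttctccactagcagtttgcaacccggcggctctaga

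The printed stretches of Ifit3 and Ifit3b were alike at 134 of 134 bases, those of Oas1a and Oas1g at 62 of 63 and those of Irgm2 and Igtp at 77 of 79. The transcripts of these pairs are alike too, so that reads can be split between them. Of all 75-base windows, the read length, Ifit3 shared 41.1% with Ifit3b, and Oas1a shared 47.6% with Oas1g, and their single values are uncertain. Igtp shared 8.37% of its windows with Irgm2, with which it also overlaps on the same strand. Herc6 shared 22.4% with the predicted gene Gm45193 and Rtp4 12.4% with Gm45338, and Iigp1 shared 0. Exons of Irf7, Irf1, Usp18, Dhx58, Oasl1, Ifi35, Parp9 and Dtx3l overlap another gene on the opposite strand, and those of Irf9 (with Rnf31), Herc6 (with Gm45193), Rtp4 (with Gm45338) and Irgm2 (with Igtp) overlap one on the same strand, where reads can be lost or misassigned.

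With all 6 libraries, edgeR called none of the 40 genes different between KO and WT, and Iigp1 and Dtx3l were the only ones that were lower in each KO library than in each WT library. By edgeR's quasi-likelihood test, 0 of 40 had an adjusted p under 0.05 in either direction, against 0% of all 13773 genes, and 2 of 40 (5%) had an unadjusted p under 0.05 against 7.17% of all genes tested. DESeq2, an alternative test, called 1 of the 40 lower in KO (2.5%, Iigp1), against 0.624% of all genes, and limma-voom called 0. The CPM of all 3 KO libraries lay below that of all 3 WT libraries for 2 genes (5%, Iigp1 and Dtx3l), against 6.4% of all genes tested. For 0 of 40 did they all lie above, against 5.99% of all genes. The log2 fold changes ran from -0.62 to 0.19, and 34 of 40 were negative (85%, against 50.2% of all genes tested), with a median of -0.24 against -0.00. Without KO replicate 4, 23 of 40 were negative (57.5%, against 50.9%), and the median was -0.03 against -0.01. The median also moved with other libraries: it was -0.45 without KO replicate 1, -0.37 without WT replicate 2 and -0.07 without WT replicate 3. Without KO replicate 1, 10 of the 40 genes had an unadjusted p under 0.05 in edgeR. At that setting 0 were called, as were 0 of all genes. The share of all genes with an unadjusted p under 0.05 was not counted there.

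Iigp1, a GTPase induced by interferons that damages the vacuoles of intracellular parasites, was the gene with the smallest p (chromosome 18 of GRCm38, 60376027 to 60392634, plus strand). Its level was 436, 485 and 481 CPM across WT replicates 1 to 3, and 314, 296 and 335 CPM across KO replicates 1, 2 and 4. The groups did not overlap, and KO replicate 4 was the highest of the KO libraries. WT libraries averaged 467 ± 27.1 CPM (SD, n = 3) and KO libraries 315 ± 19.6 CPM (SD, n = 3), a ratio of 0.674. Its log2 fold change of -0.57 (SE, the standard error, 0.11) had an adjusted p of 0.2 from edgeR and 0.00133 from DESeq2. Without KO replicate 4 it was -0.61 (SE 0.11), with an adjusted p of 0.0496 from edgeR and 1.9e-05 from DESeq2. At that setting edgeR called 1 of the 40 genes lower in KO (2.5%) against 0.454% of the 14102 genes tested, and DESeq2 called 1 of 40 against 1.81%, Iigp1 in both cases. The call therefore rested on the test and the libraries used, while the log2 fold change stayed between -0.61 and -0.52 with any 1 library left out.

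**Figure D1:**
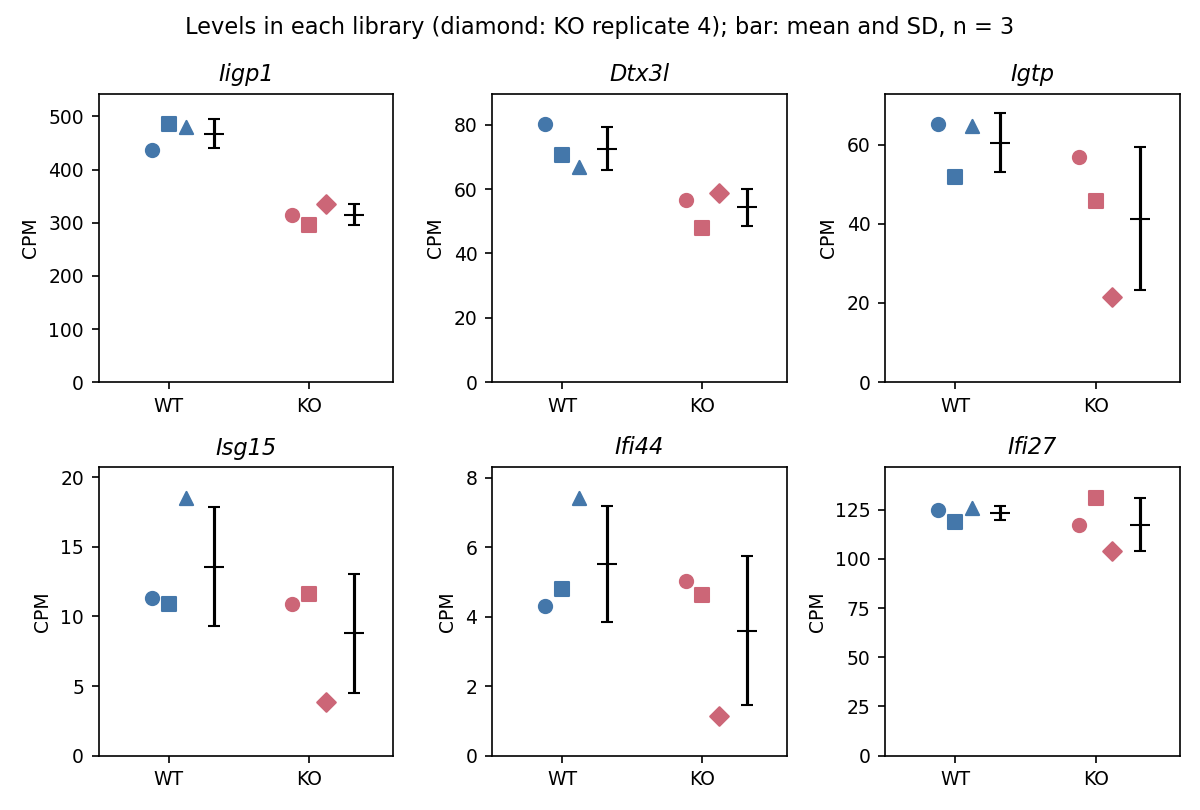
Levels of 6 genes in CPM on a linear axis from 0 in each WT (blue) and KO (red) library, with circles, squares and triangles for replicates 1, 2 and 3, the diamond for KO replicate 4 and black bars for the mean and SD of 3 libraries. Iigp1 and Dtx3l are lower in every KO library than in any WT library, whereas Igtp, Isg15 and Ifi44 are low in KO replicate 4 and Ifi27 hardly varies.

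The other immunity-related GTPases, Igtp, Irgm2 and Irgm1, which control how such vacuoles are marked and how cells clear them, had another pattern. Igtp was at 65.1, 51.8 and 64.6 CPM in WT and at 56.8, 45.7 and 21.5 CPM in KO replicates 1, 2 and 4. KO replicate 4 was lower than any other library, and KO replicate 1 lay within the WT range. In log2 fold change this was -0.55 (SE 0.30, edgeR adjusted p = 0.806), and -0.23 (SE 0.14, adjusted p = 0.58) without KO replicate 4. Irgm2 had 98.1, 71.1 and 102 CPM in WT and 89.8, 63.9 and 47.2 CPM in KO, again overlapping, with a log2 fold change of -0.43 (SE 0.24, adjusted p = 0.803) and of -0.23 (SE 0.19) without KO replicate 4. Irgm1 stood at 41.8 CPM in KO replicate 4 and at 53 to 68 CPM in the other 5 libraries, with a log2 fold change of -0.17 that was -0.01 without KO replicate 4. Igtp, Irgm2 and Irgm1 lie on chromosome 11, as does Ngfr, at distances of 37.4, 37.3 and 46.7 Mb. Dhx58, Ifi35, Xaf1 and Irf1 lie on it too, at 5.11, 5.86, 23.3 and 41.8 Mb from Ngfr. Their log2 fold changes were -0.16, 0.03, 0.19 and -0.34.

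Dtx3l, a ubiquitin ligase, Parp9, its partner, and Parp14 are enzymes of ubiquitin and ADP-ribose transfer that act on interferon signalling and antiviral defence. Dtx3l was at 80.1, 70.7 and 67 CPM in WT and at 56.7, 47.9 and 58.7 CPM in KO. The groups did not overlap, and KO replicate 4 was again the highest KO library. The log2 fold change was -0.41 (SE 0.12, unadjusted p = 0.00919, edgeR adjusted p = 0.479), and the adjusted p from DESeq2 was 0.248. Without KO replicate 4 it was -0.47 (SE 0.13), with an adjusted p of 0.171 from edgeR and 0.0522 from DESeq2, so the difference did not pass the threshold in either fit.

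Parp9, which overlaps Dtx3l head to head on the opposite strand, was at 84.1, 75.8 and 72.2 CPM in WT and at 73.2, 63.4 and 50.3 CPM in KO. KO replicates 2 and 4 were below all WT libraries and KO replicate 1 was not. Its log2 fold change was -0.31 (SE 0.15, adjusted p = 0.752), and -0.18 (SE 0.12) without KO replicate 4. Parp14 was at 37.8, 33.4 and 45 CPM in WT and at 40.9, 28.9 and 29.6 CPM in KO, with a log2 fold change of -0.22 (SE 0.17, adjusted p = 0.89), and of -0.14 (SE 0.17) without KO replicate 4, and its groups overlapped. The library kit kept the strand, but no source used here gives the strand setting of featureCounts, and reads of the shared part of Parp9 and Dtx3l may have been lost or assigned to either.

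Of the transcription factors, Irf7, which is the main amplifier of type I interferon production, was at 64.5, 45.5 and 65 CPM in WT and at 65.1, 49.1 and 34.9 CPM in KO. KO replicate 4 was the lowest and KO replicate 1 the highest of all 6 libraries. This amounted to a log2 fold change of -0.23 (SE 0.23, edgeR adjusted p = 0.923) and it was -0.02 (SE 0.18) without KO replicate 4. Irf1, a factor of the interferon gamma response, was at 32, 29.3 and 48.5 CPM in WT and at 28.4, 21.4 and 36.9 CPM in KO. Here KO replicates 1 and 2 were below all WT libraries and KO replicate 4 was higher than 2 of the 3 WT libraries. The log2 fold change was -0.34 (SE 0.24, adjusted p = 0.874), and -0.55 (SE 0.22, adjusted p = 0.359) without KO replicate 4. Irf9 and Stat2, the DNA-binding and transactivating subunits of the ISRE complex, ranged from 31.8 to 49.3 CPM and from 40.2 to 49.6 CPM, each lowest in KO replicate 4, with a log2 fold change of -0.09 for both, which was 0.07 and -0.02 without that library.

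The Ifit genes encode proteins that bind foreign RNA and block its translation. Ifit1 was at 19.8, 13.2 and 30.3 CPM in WT and at 20.3, 14.4 and 8.28 CPM in KO. The 3 WT libraries differed by a factor of 2.3 among themselves, and only KO replicate 4 lay below them. KO over WT gave a log2 value of -0.56 (SE 0.36, edgeR adjusted p = 0.862), and -0.28 (SE 0.30) without KO replicate 4. Ifit3 was at 13.2, 11.4 and 17.3 CPM in WT and at 18, 14.6 and 5.58 CPM in KO, so that its log2 fold change of -0.13 became 0.23 without KO replicate 4. Ifit3b, whose promoter stretch above equals that of Ifit3, went from -0.28 to 0.07 in the same way, and Ifit2 from -0.27 to -0.05.

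Isg15, a ubiquitin-like protein that is attached to other proteins, had the lowest log2 fold change of the 40 genes. It was at 11.3, 10.9 and 18.5 CPM in WT and at 10.9, 11.6 and 3.83 CPM in KO. KO replicates 1 and 2 were close to WT replicates 1 and 2, WT replicate 3 was highest and KO replicate 4 lowest. The log2 fold change was -0.62 (SE 0.39, edgeR adjusted p = 0.851), and -0.26 (SE 0.23, adjusted p = 0.734) without KO replicate 4. Usp18, the protease that removes Isg15 and restrains type I receptor signalling, was at 16.7, 12.6 and 22.9 CPM in WT and at 23.5, 15.6 and 7.19 CPM in KO. Its highest and its lowest library were both KO, with a log2 fold change of -0.17 (SE 0.39, adjusted p = 0.966) and of 0.17 (SE 0.25) without KO replicate 4. Herc6, the mouse ligase for Isg15, was at 5.75 to 11.8 CPM and lowest in WT replicate 2, with a log2 fold change of 0.17, and of 0.34 without KO replicate 4.

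The OAS family makes the second messenger that activates RNase L. Its most abundant gene per length, Oasl1, which lacks this activity and in the mouse restrains translation of Irf7, was at 16.2, 11.3 and 16 CPM in WT and at 19.9, 16.6 and 12.3 CPM in KO. Its groups overlapped, with KO replicates 1 and 2 above all WT libraries, and the log2 fold change was 0.17 (SE 0.21, edgeR adjusted p = 0.943), 0.34 (SE 0.18) without KO replicate 4 and 0.00 without KO replicate 1. Oas2 was at 2.47, 2.02 and 2.24 CPM in WT and at 2.44, 1.39 and 0.993 CPM in KO, with KO replicate 1 near the top of the WT range and a log2 fold change of -0.48 (SE 0.36, adjusted p = 0.89). That of Oas2 was -0.23 (SE 0.34) without KO replicate 4 and -0.90 without KO replicate 1. Oas3 reached 4.53 CPM in KO replicate 1 and was at 1.1 to 2.82 CPM in the other 5 libraries, and its log2 fold change of 0.19 (SE 0.58) was -0.81 without KO replicate 1 and 0.52 without KO replicate 4. Oas1a, Oas1g and Oasl2 had log2 fold changes of -0.46, -0.41 and -0.25, and of -0.21, -0.35 and 0.00 without KO replicate 4, and their groups overlapped.

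Of the sensors of foreign nucleic acid, Ifih1 (MDA5), which binds long double-stranded RNA, was at 31.1, 23.2 and 52.5 CPM in WT and at 36.1, 28.7 and 25.5 CPM in KO. The WT libraries held both the lowest and the highest value, and the log2 fold change was -0.24 (SE 0.28, edgeR adjusted p = 0.938), -0.13 (SE 0.29) without KO replicate 4 and 0.15 without WT replicate 3. Ddx58 (RIG-I), which binds RNA with a free triphosphate end, ran from 20.3 CPM in KO replicate 4 to 41.3 CPM in WT replicate 3, with a log2 fold change of -0.24, and of -0.04 without KO replicate 4. Dhx58, which modulates both, and Zbp1, a sensor of Z-form nucleic acid, had log2 fold changes of -0.16 and -0.09, and of 0.04 and 0.12 without KO replicate 4. WT replicate 3 was the highest library for all 4 sensors.

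Mx2 was the more abundant of the Mx GTPases, which trap viral nucleoproteins. It was at 4.84, 4.14 and 5.14 CPM in WT and at 5.54, 6.77 and 3.63 CPM in KO. KO replicates 1 and 2 were above all WT libraries and KO replicate 4 below them, and the log2 fold change was 0.18 (SE 0.25, edgeR adjusted p = 0.944), 0.39 (SE 0.21) without KO replicate 4 and -0.04 without KO replicate 2. Mx1, which is defective in many inbred strains, was at 0.719 to 2.1 CPM and lowest in KO replicate 4. Its log2 fold change was -0.27 (SE 0.41), and 0.00 without that library.

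The antiviral effectors were led by Bst2 (tetherin), which holds budding virions at the cell surface. It was at 169, 153 and 136 CPM in WT and at 131, 166 and 114 CPM in KO. The groups overlapped, and the log2 fold change was -0.16 (SE 0.16, edgeR adjusted p = 0.924), and -0.04 (SE 0.14) without KO replicate 4. Cmpk2, a mitochondrial nucleotide kinase, was at 8.99, 8.22 and 12.3 CPM in WT and at 10.6, 8.12 and 5.17 CPM in KO, with a log2 fold change of -0.30 (SE 0.27, adjusted p = 0.908) and of -0.07 (SE 0.22) without KO replicate 4. Its KO replicates 1 and 2 lay within or next to the WT range. Rsad2 (viperin), a neighbour of Cmpk2 that makes a chain-terminating nucleotide, had a log2 fold change of -0.02, and of 0.18 without KO replicate 4. Samd9l, a translation inhibitor, stood at 7.15 CPM in KO replicate 4 and at 13.7 to 23.5 CPM in the other 5 libraries, and Trim30a, which restrains Toll-like receptor signalling in the mouse, at 4.79 against 7.16 to 13.3 CPM. Their log2 fold changes were -0.36 and -0.35, and -0.03 and -0.08 without that library.

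Of the remaining genes, Ifi27, a mitochondrial and nuclear membrane protein, differed least among the WT libraries, at 125, 119 and 126 CPM in WT and at 117, 131 and 104 CPM in KO. The groups overlapped, and the log2 fold change was -0.07 (SE 0.12, edgeR adjusted p = 0.955), and 0.02 (SE 0.11) without KO replicate 4. Ifi44, a cytoplasmic antiviral protein, lay furthest below the other libraries in KO replicate 4: it was at 4.32, 4.79 and 7.42 CPM in WT and at 5.03, 4.63 and 1.13 CPM in KO. KO replicates 1 and 2 lay within the WT range and KO replicate 4 far below it, with a log2 fold change of -0.61 (SE 0.48, adjusted p = 0.897) and of -0.18 (SE 0.27) without it. Xaf1, a pro-apoptotic antagonist of XIAP, was at 3.89 to 7.97 CPM, Rtp4, a chaperone of receptors, at 9.24 to 23.3 CPM and Ifi35, a partner of Nmi, at 22.5 to 28.7 CPM, and their log2 fold changes were 0.19, -0.06 and 0.03, and 0.41, 0.23 and 0.13 without KO replicate 4.

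Per kilobase of exon, the mean level over the 6 libraries was highest for Bst2 (161 CPM per kb), Ifi27 (82 CPM per kb) and Iigp1 (67.2 CPM per kb). Igtp followed at 25.2 and Irgm2 at 21.3 CPM per kb. The lowest were Oas3, Oas1g and Mx1 at 0.3, 0.331 and 0.363 CPM per kb. Counts of the 40 genes in a library ran from 16 to 15087, and the lower ones carry more counting error.

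Each library was then given a score, the mean over the 40 genes of its log2 CPM (prior count 2) minus the mean of the 3 WT libraries. The score was -0.03, -0.27 and 0.30 across WT replicates 1 to 3, and 0.16, -0.21 and -0.75 in KO replicates 1, 2 and 4. KO replicates 1 and 2 fell inside the WT range and KO replicate 4 far below it. Leaving out Iigp1 and Dtx3l gave nearly the same scores for the other 38 genes, -0.03, -0.29 and 0.31 in WT and 0.19, -0.19 and -0.76 in KO. The difference of the KO and WT mean scores was -0.27 over 6 libraries, -0.03 without KO replicate 4, -0.12 without WT replicate 3 and -0.48 without KO replicate 1. The spread of the score between libraries of 1 group was 0.38 (pooled SD).

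**Figure D2:**
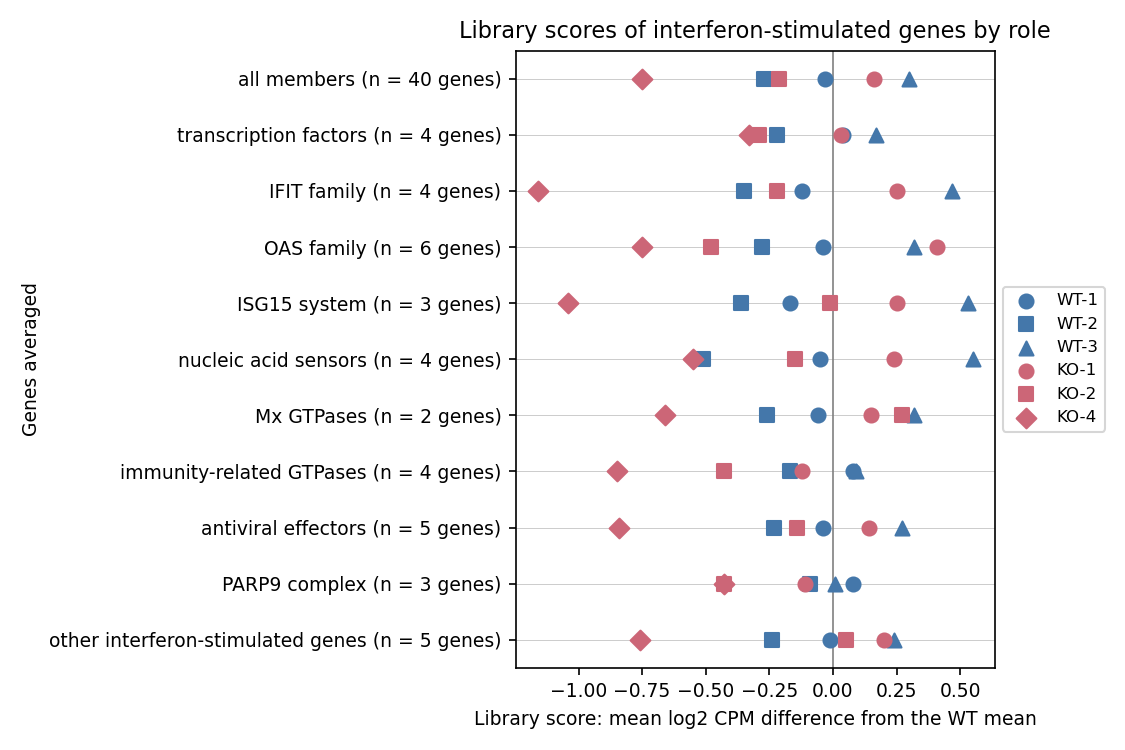
Score of each library (mean log2 CPM difference from the WT mean) for all 40 genes and for each of 10 role groups, WT libraries in blue and KO libraries in red. KO replicate 4 (diamond) is the lowest library in every row except that of the PARP9 complex, where KO replicate 2 is level with it at -0.43.

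The role groups differed in how far KO replicate 4 lay below the rest. Its score was -1.16 for the IFIT family, -1.04 for the ISG15 system, -0.85 for the immunity-related GTPases and -0.84 for the antiviral effectors. It was -0.33 for the transcription factors, next to -0.29 in KO replicate 2, and -0.55 for the sensors, next to -0.51 in WT replicate 2. For the Mx GTPases KO replicates 1 and 2 scored 0.15 and 0.27, within the WT range of -0.26 to 0.32. The PARP9 complex was the only role group in which all 3 KO libraries, at -0.11, -0.43 and -0.43, scored below all 3 WT libraries, at -0.09 to 0.08. The gap between KO replicate 1 at -0.11 and WT replicate 2 at -0.09 was narrow. Of its 3 genes, Dtx3l alone had groups without overlap.

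**Figure D3:**
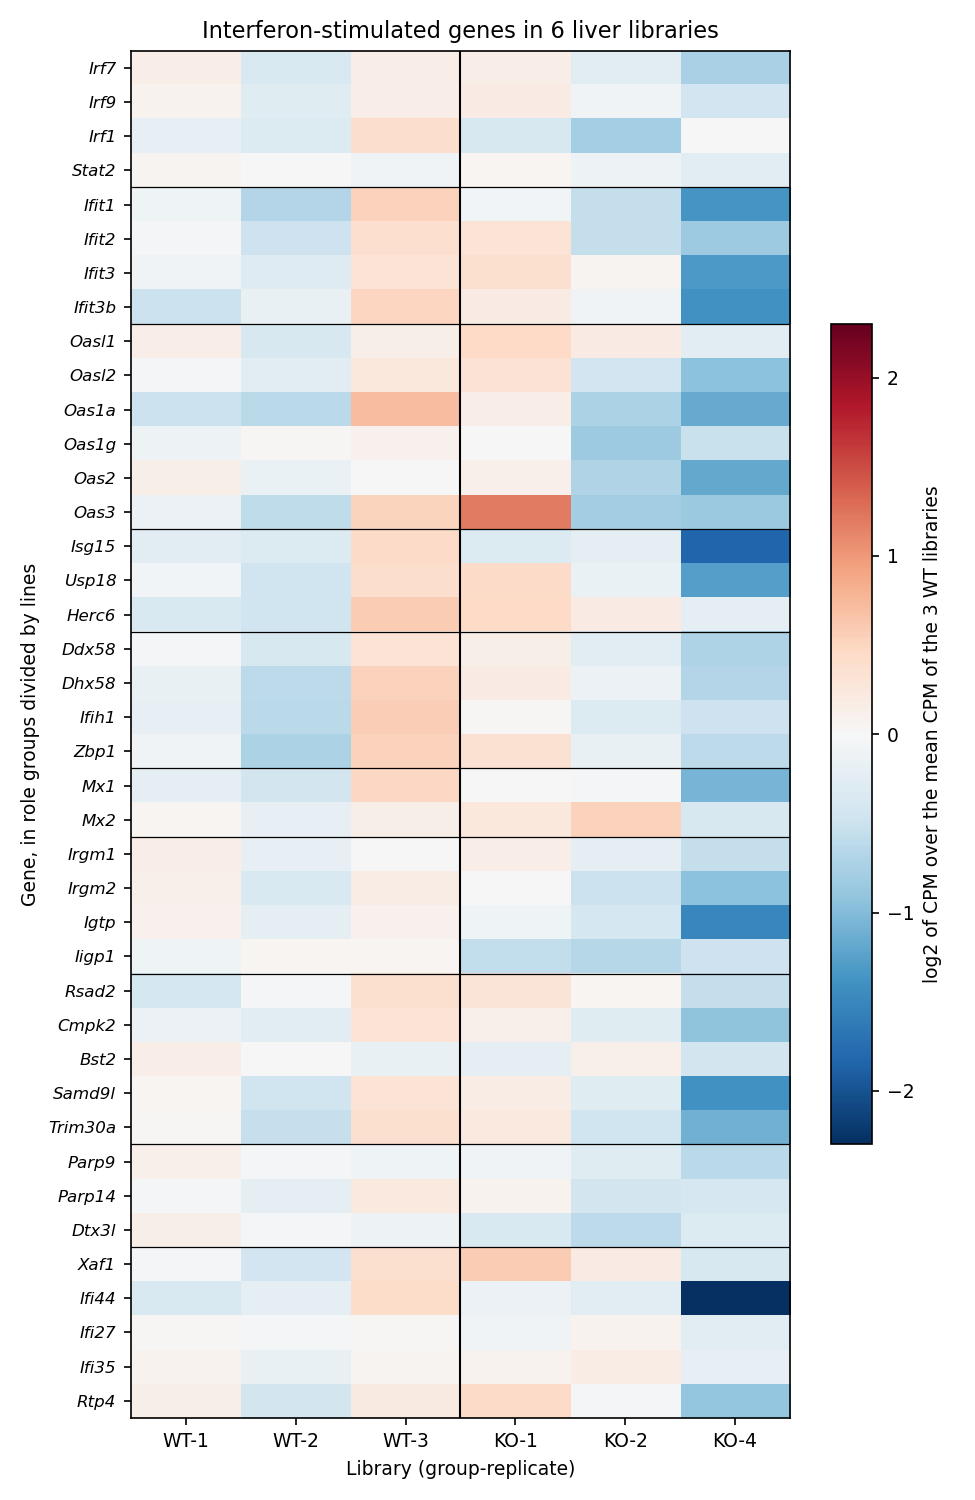
Colours give the log2 of each gene's CPM over its mean in the 3 WT libraries (blue lower, red higher) for 40 genes in 10 role groups divided by lines. The column of KO replicate 4 is blue for nearly all genes, whereas Iigp1 and Dtx3l are blue in all 3 KO columns.

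Gene by gene, KO replicate 4 was the lowest of the 6 libraries for 30 of the 40 genes (75%, against 21.3% of all genes tested) and the highest for 0 (against 21.5%). It was below both other KO libraries for 35 (87.5%, against 38.9%), the exceptions being Irf1, Oas1g, Parp14, Dtx3l and Iigp1. Its log2 CPM minus the mean of the other 5 libraries was -0.66 at the median gene, against -0.01 over all genes tested. For 10 genes (25%, against 3.7%) the gap was at least 1 log2 unit, and these were Ifi44 (-2.12), Isg15 (-1.67), Igtp (-1.39), Ifit3 (-1.39), Samd9l (-1.35), Ifit3b (-1.34), Usp18 (-1.30), Ifit1 (-1.17), Trim30a (-1.02) and Oas2 (-1.01). The 16 genes with an ISRE core in the window included Isg15 and Igtp but also Stat2, at -0.22, and Bst2, at -0.39. Of the 10 genes with the largest gaps, Ifi44 and Samd9l had a window without a core. Usp18 and Oas2 had no window, and the others had a core. WT replicate 3 was the highest library for 20 genes (50%, against 19.3%), and KO replicate 1 for 10 (25%, against 15.5%). The 40 genes varied more than most among the WT libraries, by a median factor of 1.53 between highest and lowest against 1.28 over all genes.

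**Figure D4:**
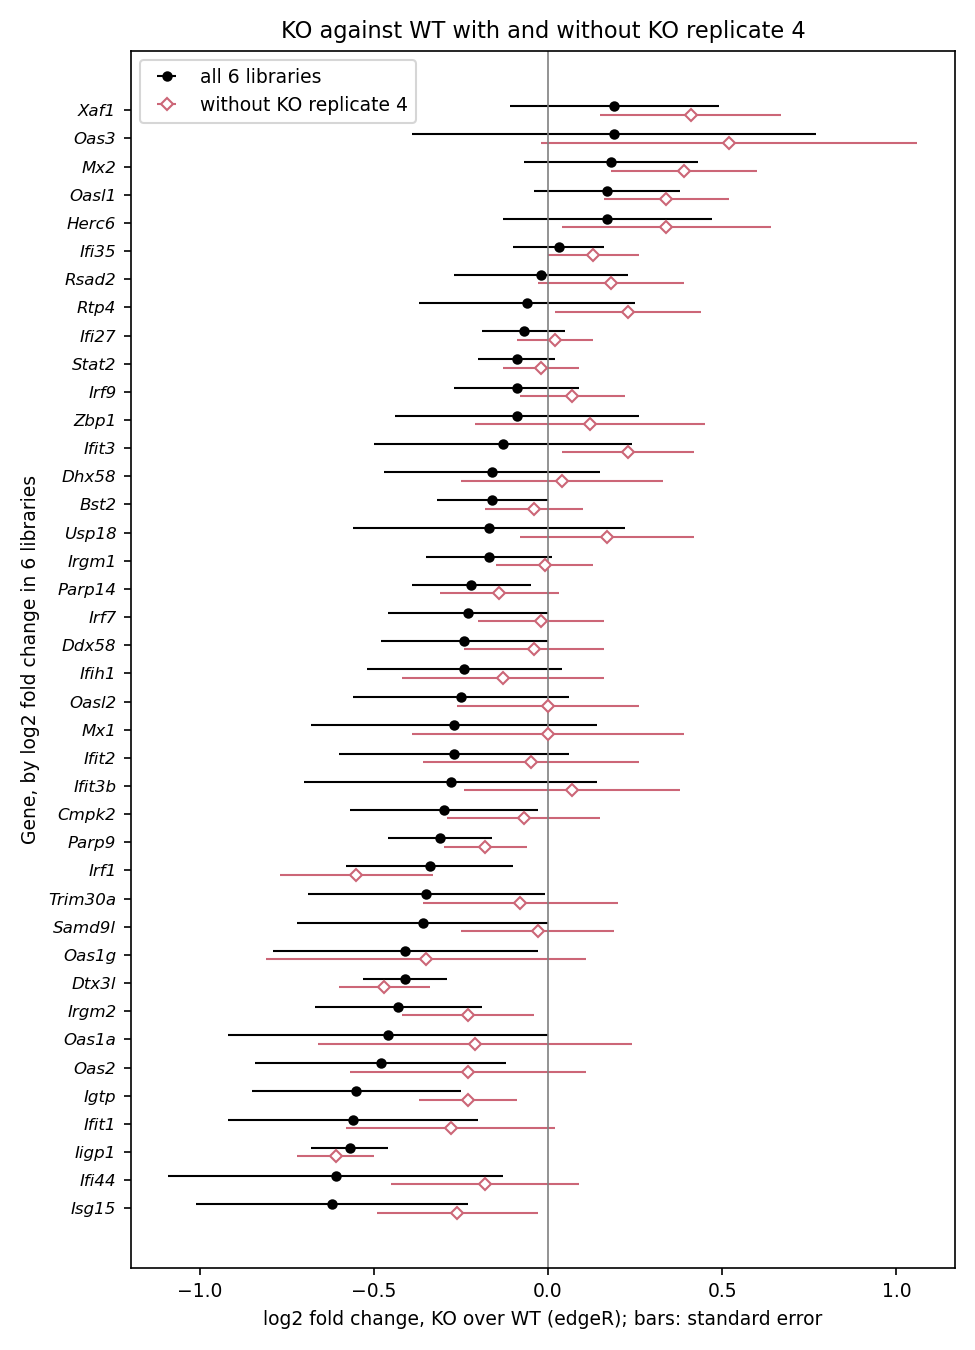
The log2 fold change of each gene (KO over WT, edgeR) with its standard error, in black for all 6 libraries and in open red for the 5 without KO replicate 4. Most values move towards 0 or above it when that library is left out, while those of Iigp1, Dtx3l and Irf1 move further below 0.

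Without KO replicate 4, 3 of the 40 genes (7.5%) had an unadjusted p under 0.05 in edgeR, against 12.2% of all genes tested, namely Iigp1, Dtx3l and Irf1. In these same genes KO replicates 1 and 2 were both below all WT libraries (7.5%, against 15.6%). For another 3 genes (7.5%, against 14.5%), Oasl1 and Mx2 among them, both were above all WT libraries. The log2 fold change turned from negative to 0 or above for 11 genes, among them Irf9, Ifit3, Usp18, Dhx58, Zbp1, Rsad2 and Rtp4.

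Markers of other cells of the liver were summed to set beside these values, and none of their lists had a gene at 0 in all libraries. In bulk tissue, fewer cells of a type and less RNA per cell cannot be told apart. The 7 Kupffer cell markers summed to 213, 245 and 442 CPM in WT and to 389, 223 and 221 CPM in KO. WT replicate 3 and KO replicate 1 were high here as in the score. The sum of KO replicate 4 was close to those of KO replicate 2 and WT replicates 1 and 2, but its markers did not move together. Clec4f, Vsig4, Timd4 and Clec1b were lowest in KO replicate 4, at -0.47, -0.72, -0.55 and -0.83 log2 units from the mean of the other libraries. Adgre1, Cd5l and Marco were not lowest there, at -0.13, -0.29 and 0.59 log2 units. The 6 markers of monocytes and recruited macrophages summed to 55.9 to 122 CPM in WT and to 54.2 to 83.6 CPM in KO, highest in WT replicate 3, but this sum was mostly Lyz2 (50.8 to 117 CPM). Of the 5 of these markers that were tested, 4 had a positive log2 fold change (median 0.35), and Cx3cr1 was at 2.43 CPM in KO replicate 4 against 0.642 to 0.869 CPM in the other libraries. The 6 sinusoidal endothelial markers summed to 169 to 275 CPM in WT and to 176 to 208 CPM in KO. Plasmacytoid dendritic cell markers summed to 1.4 to 2.06 CPM in WT and 0.719 to 1.84 CPM in KO, T and NK cell markers to 5.56 to 7.17 and 4.35 to 11.7 CPM, and B and plasma cell markers to 7.37 to 10.4 and 4.69 to 11.7 CPM. KO replicate 4 had the lowest of each of these sums, though KO replicate 2 was near it for T and NK cells, at 4.51 CPM. Cd4 and Mzb1 were highest in KO replicate 4, at 1.85 and 0.479 CPM. Cd3e, Nkg7, Jchain, Siglech, Ccr9 and Pacsin1 were lowest in another library. Of the 6 plasmacytoid dendritic cell markers, Spib alone was tested. Neutrophil markers summed to 2.09 to 3.8 CPM in WT and 4.79 to 15.2 CPM in KO. Of these, 2 of 7 were tested, S100a8 and S100a9, both higher in every KO library than in any WT library. The sum was mostly these 2 genes. The other markers, Ly6g, Retnlg, Mpo, Camp and Ltf, had few counts and overlapping groups. In KO replicate 4, Ly6g, Mpo and Camp were at 0 CPM, and Retnlg was at its lowest, 0.274 CPM. The adjusted p of S100a9 was 0.414 from edgeR and 0.0172 from DESeq2. Stellate cell and fibroblast markers summed to 288 to 380 CPM in WT and 395 to 445 CPM in KO. The largest part of this sum was Dcn (151 to 260 CPM), and the groups overlapped for each of the 7 markers. Cholangiocyte markers summed to 26.9 to 65.4 and 31.7 to 76.8 CPM, and red blood cell markers to 299 to 338 and 306 to 382 CPM. Of the red blood cell markers, Alas2 was at 102 CPM in KO replicate 4 against 17.1 to 20.8 CPM in the other libraries, while the others were lowest there. The part of these cells in the differences was not tested.

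The rest of the interferon pathway was described with 92 further genes, 78 of which passed the filter, and 0 were called by edgeR or DESeq2 over 6 libraries. By edgeR 8 of the 78 (10.3%) had an unadjusted p under 0.05, against 7.17% of all genes tested. All KO libraries lay below all WT libraries for 6.4% of all genes tested and above them for 5.99%. Below and above, the counts were 2 and 0 of 5 receptors, 1 and 2 of 14 signalling genes and 1 and 2 of 11 induction genes. They were 1 and 1 of 39 further interferon-stimulated genes and 1 and 0 of 9 genes of the interferon gamma response. Of 10 interferon genes, Ifng alone had counts, 10 in all 6 libraries together, and the other 9 had 0. Of the receptors, 5 of 6 were tested, with a median log2 fold change of -0.09. All 5 values lay at or below 0, that of Ifnar2 at -0.00. Ifngr2, the signalling chain of the interferon gamma receptor, was at 40.3, 45.7 and 38.5 CPM in WT and at 27.5, 36.1 and 28.9 CPM in KO. The groups did not overlap, and the log2 fold change was -0.43 (SE 0.14, unadjusted p = 0.0132, edgeR adjusted p = 0.523). Ifnar1 was at 45.1 to 46 CPM in WT and 39.1 to 44.4 CPM in KO, with a log2 fold change of -0.15 (adjusted p = 0.867).

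Of the 14 genes of JAK-STAT and IRF signalling, 6 had a negative and 8 a positive log2 fold change (median 0.03). Stat3, which transduces interleukin-6 signals in liver, was at 104, 102 and 107 CPM in WT and at 130, 131 and 165 CPM in KO, every KO library above every WT library. Its log2 fold change was 0.45 (SE 0.13, unadjusted p = 0.00696), with an adjusted p of 0.423 from edgeR and 0.111 from DESeq2. Socs3, a feedback inhibitor of these signals, was at 5.81 to 8.38 CPM in WT and at 7.69 to 16.7 CPM in KO (log2 fold change 0.73, adjusted p = 0.659). In KO replicate 4 the mean score of these 14 genes was 0.18, against -0.75 for the interferon-stimulated genes.

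Of 11 genes of interferon induction, 5 had a negative and 6 a positive log2 fold change (median 0.05). Ikbke, a kinase that activates Irf3 and Irf7, was at 7.37, 10.1 and 9.38 CPM in WT and at 13.2, 12.5 and 13.8 CPM in KO, with a log2 fold change of 0.55 (SE 0.16, edgeR adjusted p = 0.441). Trim25, the ubiquitin ligase of RIG-I, was at 88, 85.7 and 89.3 CPM in WT and at 136, 104 and 111 CPM in KO, with a log2 fold change of 0.42 (SE 0.13, adjusted p = 0.489). In both genes all KO libraries were above all WT libraries, and neither passed the threshold.

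A further 40 interferon-stimulated genes were listed, of which 39 were tested. Of these, 29 lay below 0 and 10 above it in log2 fold change, and the median of -0.16 became -0.01 without KO replicate 4. Their score was -0.04, -0.17 and 0.21 in WT and 0.20, -0.20 and -0.44 in KO, so KO replicate 4 was again the lowest library and WT replicate 3 and KO replicate 1 were the highest. Ifitm3, which blocks viral entry in endosomes, went the other way, at 309, 280 and 336 CPM in WT and at 361, 437 and 359 CPM in KO, with a log2 fold change of 0.32 (SE 0.13, edgeR adjusted p = 0.677). Mndal, a nuclear HIN-200 protein, was at 6.23 to 7.39 CPM in WT and at 3.53 to 5.47 CPM in KO, with a log2 fold change of -0.57 (adjusted p = 0.631). Of the 11 genes of the interferon gamma response, 9 were tested and 7 had a negative log2 fold change (median -0.18). Their score was -0.08, -0.15 and 0.23 in WT and 0.06, -0.46 and -0.19 in KO, so here KO replicate 2 was the lowest library. The chemokine gene Cxcl10, named after its values were seen, was highest in KO replicate 4, at 6.95 CPM against 2.32 to 4.24 CPM in the other 5. Of the same list, Gm4951, a GTPase related to Iigp1, was at 114, 112 and 120 CPM in WT and at 102, 85.4 and 109 CPM in KO, without overlap of the groups (log2 fold change -0.22, adjusted p = 0.803), and Cxcl9, a chemokine induced by interferon gamma, at 12.4, 14.1 and 9.92 CPM in WT and 13.8, 7.97 and 10.3 CPM in KO.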

How the data were processed

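The authors selected polyadenylated RNA, prepared directional libraries, sequenced 75-base single-end reads, applied Trimmomatic, mapped the reads to GRCm38.p5 (GENCODE M12 annotation) by STAR 2.5.0c and counted them by featureCounts. The deposited table holds whole-number counts per gene for 6 libraries, not normalized. No source used here gives the strand setting of featureCounts. Titles and genotypes in the labels gave the groups and replicate numbers.

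Symbols and positions were taken from GENCODE M21, in which 49412 of 49671 IDs were found, and 0 rows named no gene. Counts were tested with edgeR 4.0.16 in R 4.3.3 (filterByExpr, TMM, glmQLFit and glmQLFTest, group as the only term), with Benjamini-Hochberg adjustment over the 13773 genes that passed, and genes with an adjusted p under 0.05 were called. CPM were scaled by TMM, and the standard error is the log2 fold change over the root of the F statistic. The fits were tested on simulated data. Alternatives were DESeq2 1.42.0, limma-voom (limma 3.58.1), other scalings and filters, robust dispersions, a block for the replicate number and each library left out. DESeq2 without KO replicate 4 was added after seeing the data. Exact permutation of 3 against 3 libraries cannot give a p under 0.1, so none was used. The labels number the libraries and name no animal. The p-values therefore measure only the spread between these samples, and how much of it is technical is not known. The Y-linked and Xist levels of KO replicate 4 set it apart from the other KO libraries. The replicate pairs differed by more than counting error. Values in every library and the edgeR log2 fold change, standard error and adjusted p are given for the 12 members with the smallest p and the most abundant of each role group. Of each pathway list, up to 3 genes with the smallest p and the most abundant one could be named. The members and lists were chosen with earlier results of these data known. Of the pathway genes, 2 were matched by an older symbol. Figures were drawn with matplotlib 3.10.9.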

Additional observations from a re-analysis of the deposited data

How the results depend on the processing

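The median log2 fold change of the 40 genes was -0.45 to -0.03 with 1 library left out (-0.45 without KO replicate 1, -0.37 without WT replicate 2, -0.07 without WT replicate 3 and -0.03 without KO replicate 4) and -0.27 to -0.23 under the other tests, scalings and filters. The median of the pathway genes, -0.12, was -0.23 to -0.00 with 1 library left out, and the difference of the mean scores was -0.48 to -0.03. The score of KO replicate 4 was -0.79 to -0.65 under the other summaries, scalings and prior count. The number of the 40 genes called was 0, 1 with DESeq2, 0 to 1 with 1 library left out by edgeR, and 1 with DESeq2 without KO replicate 4. The number with an unadjusted p under 0.05, 2 of 40, was 7 with no filter and 2 to 10 with 1 library left out, the 10 without KO replicate 1. By edgeR, that share of all genes was counted only with all 6 libraries and without KO replicate 4. No other test, scaling or filter called any of the 40 genes, and the edgeR adjusted p of Iigp1 was 0.0673 with no filter and 0.0496 to 0.739 with 1 library left out. Of the pathway genes, 1 was called by DESeq2 without KO replicate 4 (Ifitm2, log2 fold change 0.47). Over all genes, edgeR called 0 with 6 libraries, 114 without KO replicate 4 and 136 with no filter, DESeq2 166 and limma-voom 5. The ISRE core followed by CT was found in 31.0% of members in place of 55.2%.

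Of 600 values of single genes under an alternative, 63 changed sign, over 27 genes, and the cause was not tested. With 1 library left out the log2 fold changes of genes that changed sign ran, for Irf9 -0.24 to 0.07, Ifit3 -0.46 to 0.23, Ifit3b -0.57 to 0.07, Oasl2 -0.65 to 0.00, Oas1a -0.91 to 0.09, Oas3 -0.81 to 0.53, Usp18 -0.60 to 0.17, Herc6 -0.02 to 0.58, Dhx58 -0.39 to 0.21, Ifih1 -0.47 to 0.15, Zbp1 -0.36 to 0.28, Mx1 -0.45 to 0.04, Mx2 -0.04 to 0.39, Rsad2 -0.20 to 0.20, Xaf1 -0.05 to 0.42, Ifi27 -0.15 to 0.02, Ifi35 -0.05 to 0.13 and Rtp4 -0.38 to 0.23. With DESeq2 without KO replicate 4 the sign changed for Irf9 0.07, Ifit3 0.23, Ifit3b 0.07, Oasl2 0.00, Usp18 0.18, Dhx58 0.04, Zbp1 0.12, Mx1 0.01, Rsad2 0.18, Ifi27 0.02 and Rtp4 0.23, and with limma-voom for Oas3, at -0.06.

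The replicate numbers 1 and 2 occur in both groups, but the labels do not pair them, and the deviations of same-numbered libraries from their group means correlated at -0.124 and 0.0259. With the number as a block, which compares replicates 1 and 2 alone, 2 of the 40 genes were called (Iigp1 and Dtx3l, adjusted p = 0.0255 and 0.0342), 12 had an unadjusted p under 0.05, the median log2 fold change was 0.13 and 1 pathway gene was called (Ifitm2, 0.53). Over all genes 468 were called, and the number with an unadjusted p under 0.05 was not counted. Under this block the sign changed for Irf7 0.06, Irf9 0.15, Ifit1 0.08, Ifit2 0.14, Ifit3 0.40, Ifit3b 0.39, Oasl2 0.10, Oas1a 0.29, Isg15 0.02, Usp18 0.40, Ddx58 0.13, Dhx58 0.41, Ifih1 0.26, Zbp1 0.49, Mx1 0.31, Rsad2 0.40, Cmpk2 0.11, Samd9l 0.16, Trim30a 0.13, Ifi44 0.09, Ifi27 0.03 and Rtp4 0.34.

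Oas1g had fewer than 1 CPM in every library, which limits its value, and the sharing of reads between near-identical genes limits those of Ifit3, Ifit3b, Oas1a and Oas1g.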
